A study of Mus musculus with 48 samples.

Results

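The 10 genes described here carry out or regulate macroautophagy, and they were followed through one feeding day in mouse liver. They were chosen by name, with earlier results of these data known: Ulk1, Atg101, Atg14, Becn1, Map1lc3a, Map1lc3b, Gabarapl1, Sqstm1, Bnip3 and Tfeb. All 10 were found among the 24453 genes with exon values and among the 20771 genes with intron values. The samples were livers of Nono-/- mice and of wild-type mice, both on a C57BL/6 background and 14 weeks old, kept in 12 h of light and 12 h of dark and given food only in the dark for one week before collection. Nono encodes a nuclear RNA- and DNA-binding protein of paraspeckles, and the labels name the mutant allele only by its genotype. Livers were taken every 2 h from ZT0 (lights on) to ZT22, each sample was a pool of 2 mice, and total RNA and nuclear RNA came from the same livers, which gave 48 libraries in 4 groups of 12. No time point had a replicate, so error was estimated from scatter around a daily curve. In dark minus light tests it was scatter around the dark and light means, which includes change within each phase. P-values reflect only how pools of different hours vary.

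Macroautophagy encloses cytoplasm in a double membrane, the autophagosome, and delivers it to the lysosome. The ULK1 kinase complex starts the process, a lipid kinase complex that holds Beclin 1 and ATG14 marks the membrane, and small ubiquitin-like proteins of the ATG8 family (LC3 and GABARAP proteins) are attached to it. Cargo receptors such as p62 bind both the cargo and the ATG8 proteins. In liver the process is known to run mainly in fasting, when mTORC1, which inhibits it, is low and the transcription factor TFEB enters the nucleus. RNA levels measure neither the proteins nor the flux through the pathway.

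Values are FPKM (fragments scaled to exon or intron length and to library size), so levels can be compared between genes. Depth ranged from 9.91 to 28.9 M reads. Nono exons were at 0 to 0.0910 FPKM in Nono-/- total RNA, against 8.74 to 10.7 FPKM in wild-type total RNA. All 9 hepatocyte markers found in the table, of 10 listed, averaged at least 1 FPKM in each group. The summed level of 10 Kupffer cell markers had a median of 192 FPKM (106 to 303) in Nono-/- total RNA and of 149 FPKM (91.6 to 227) in wild-type total RNA, and that of 9 stellate cell markers 168 FPKM (128 to 196) and 144 FPKM (113 to 171). Their part in the results was not tested. In bulk liver, fewer cells of a type and less RNA per cell cannot be told apart.

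The libraries also differed in how their exon values followed the GC content of transcripts, and this bears on the members. The slope of log2 FPKM on transcript GC, per 10 points of GC and relative to the mean library, ranged from -0.38 at ZT14 to 0.24 at ZT6 in Nono-/- total RNA, and from -0.60 at ZT8 to 0.38 at ZT20 in wild-type total RNA. Nono-/- total RNA at ZT10 and ZT16 was also low, with slopes of -0.37 and -0.36. In nuclear RNA the slope ran from -0.98 at ZT2 to 0.26 at ZT14 in Nono-/- libraries and from -0.10 at ZT2 to 0.43 at ZT22 in wild-type libraries, with means of -0.20 ± 0.36 and 0.20 ± 0.20 (SD, n = 12 each), so in nuclear RNA it moved with genotype. Tfeb (63.2% GC), Map1lc3a (63.1%), Atg101 (58.0%) and Ulk1 (58.0%) lie at or above the 92.8th percentile of GC among the genes tested, Bnip3 (41.6%) lies at the 12.0th, and the other members lie between 45.0% and 54.0%. Over the 12 Nono-/- and the 12 wild-type total RNA libraries the log2 level of Map1lc3a followed the slope with r = 0.88 and 0.98, Tfeb with r = 0.88 and 0.89, and Atg101 with r = 0.90 and 0.72. Sqstm1 had r = 0.83 and 0.40, Ulk1 0.34 and 0.51, and Bnip3 -0.68 and -0.41, and the other members lay between -0.47 and 0.20. These correlations are descriptions over libraries that share the slope. Further fits were therefore made for each comparison, one with the slope as a covariate and one, for exons, with values corrected in bins of GC. Their values stand beside many, but not all, of the main results whose calls they change. Larger changes in the counts of members called are given in the last section.

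**Figure D1:**
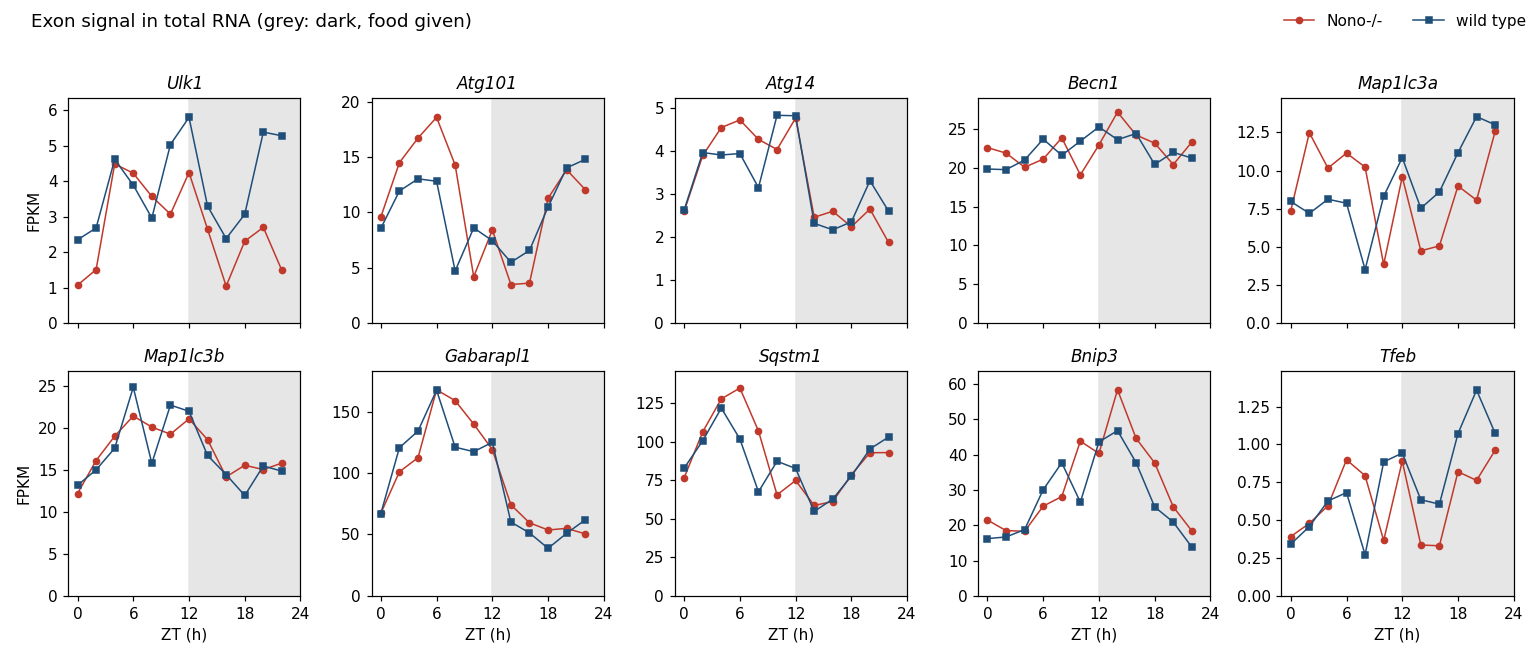
Exon FPKM of the 10 genes in total RNA (y axis, from 0) against zeitgeber time in h (x axis), 1 point per pool, Nono-/- in red circles and wild type in blue squares, with the dark, feeding hours in grey. The ZT0 points, counted as dark in the tests, lie left of the grey. Gabarapl1 and Atg14 drop between ZT12 and ZT14 in both genotypes, Bnip3 is highest at ZT14, and Map1lc3a, Atg101 and Tfeb are low at ZT10 in Nono-/- and at ZT8 in wild type.

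In total RNA of both genotypes, Gabarapl1 and Atg14 were the members called lower in the dark, when food was present, than in the light. Daily rhythms of a 24 h period passed for 7 of 10 members in Nono-/- livers, against 29.6% of all 11352 genes tested, and for 5 of 10 in wild-type livers, against 31.6% (limma, adjusted p under 0.05). Ulk1, Map1lc3b, Gabarapl1, Sqstm1, Bnip3, Atg101 and Atg14 passed in Nono-/- livers, and Map1lc3b, Gabarapl1, Sqstm1, Bnip3 and Atg14 in wild-type livers. Dark libraries (ZT14 to ZT22 and ZT0) were lower than light libraries (ZT2 to ZT12) for 2 of 10 members in Nono-/- livers (2.26% of all genes) and for 3 of 10 in wild-type livers (5.71%), and no member was higher. The column labels mark ZT14 to ZT22 as fed, and not ZT0. With no correction of GC the median dark minus light difference of the members was -0.34 in Nono-/- and -0.20 in wild type on the log2 scale, against 0.01 for all genes in both. The members were chosen by name from a known pathway, with earlier results of these data known. These counts and medians therefore describe them only.

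Ulk1 (mm10, chr5:110784489-110810081, minus strand) encodes the kinase that starts autophagosome formation. In Nono-/- livers it had 1.04, 1.89 and 2.70 FPKM (lowest, median, highest) in the dark and 1.50, 3.90 and 4.49 FPKM in the light; in wild-type livers it had 2.35, 3.18 and 5.38 FPKM in the dark and 2.68, 4.25 and 5.80 FPKM in the light. Dark and light libraries overlapped in both genotypes, and the Nono-/- libraries at ZT0, ZT2, ZT16 and ZT22 were all under 2 FPKM, a level that no wild-type library reached. Its rhythm passed in Nono-/- livers, with a peak-to-trough log2 difference of 1.33 ± 0.38 (SE) and a fitted peak at ZT9.0 ± 1.08 h (limma, adjusted p = 0.0307), and did not pass in wild-type livers, at 0.24 ± 0.38 (adjusted p = 0.859). The test of the difference between the rhythms did not pass (adjusted p = 0.498). The Nono-/- rhythm lost its call without any one of ZT0, ZT6, ZT10, ZT12, ZT14 and ZT22, with adjusted p between 0.00798 and 0.0736 over the 12 fits that left out a time point. It was also lost with no scaling (limma, adjusted p = 0.0544), no filter (0.0578) and an added 12 h period (0.0832). The dark minus light difference in Nono-/- livers was -0.86 ± 0.27 (limma, adjusted p = 0.0623), and its adjusted p was 0.0491 with time point as a block and 0.0459 with the GC slope as a covariate.

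Atg101 (chr15:101284301-101290934, plus strand) encodes a subunit of the ULK1 complex. It had 3.48, 10.4 and 13.9 FPKM in the dark and 4.18, 14.4 and 18.6 FPKM in the light in Nono-/- livers, and 5.49, 9.52 and 14.8 FPKM in the dark and 4.70, 10.3 and 13.0 FPKM in the light in wild-type livers. The lowest values stood at ZT10, ZT14 and ZT16 in Nono-/- livers and at ZT8 in wild-type livers, the same libraries whose GC slope was lowest. The rhythm had a peak-to-trough log2 difference of 1.65 ± 0.35 in Nono-/- livers, with a peak at ZT2.2 (limma, adjusted p = 0.00513), and of 1.01 ± 0.35 in wild-type livers (adjusted p = 0.0800). With the GC slope as a covariate the wild-type rhythm also passed (1.01, limma adjusted p = 0.000780), as it did after correction in bins of GC (0.91, adjusted p = 0.00739).

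Atg14 encodes the subunit that directs the lipid kinase complex to sites where autophagosomes form. In Nono-/- livers it had 1.88, 2.53 and 2.65 FPKM in the dark and 3.90, 4.42 and 4.78 FPKM in the light, and in wild-type livers 2.17, 2.48 and 3.31 FPKM in the dark and 3.15, 3.96 and 4.84 FPKM in the light. In Nono-/- livers all 6 dark libraries lay below all 6 light libraries, which held for 1.08% of all genes. In wild-type livers the same held for the scaled values (2.21% of genes), while in unscaled FPKM the dark library at ZT20 (3.31) stood above the light library at ZT8 (3.15). Between dark and light the log2 difference (dark minus light) was -0.81 ± 0.11 in Nono-/- livers (limma, adjusted p = 0.000230) and -0.66 ± 0.11 in wild-type livers (adjusted p = 0.000944). The fitted peaks were at ZT7.6 ± 0.74 h in Nono-/- and ZT7.0 ± 1.03 h in wild type, with peak-to-trough log2 differences of 1.08 ± 0.21 (limma, adjusted p = 0.00239) and 0.78 ± 0.21 (adjusted p = 0.0214). The wild-type rhythm of Atg14 lost its call without ZT16 or ZT18 (limma, adjusted p up to 0.0603) and with an added 12 h period (0.105).

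Becn1, which encodes the scaffold Beclin 1 of the same complex, was the steadiest member in total RNA. It had 19.1, 22.8 and 27.2 FPKM over the day in Nono-/- livers and 19.8, 21.8 and 25.3 FPKM in wild-type livers. Its highest level was less than 1.5 times its lowest in both genotypes, and no comparison in total RNA passed. The peak-to-trough log2 difference was 0.28 ± 0.10 in Nono-/- livers (limma, adjusted p = 0.0832) and 0.29 ± 0.10 in wild-type livers (adjusted p = 0.0701, and 0.0317 with the GC slope as a covariate). Becn1 shares 435 bases of its span with Cntd1 on the other strand, and no strand option stands in the file headers, so reads of that stretch cannot be told apart.

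Of the 10 genes, Gabarapl1, an ATG8 family gene, had the highest median FPKM in total RNA and the largest fitted daily change in both genotypes. In Nono-/- livers Gabarapl1 had 50.5, 57.2 and 74.1 FPKM in the dark and 101, 129 and 168 FPKM in the light, and in wild-type livers 38.7, 55.7 and 67.0 FPKM in the dark and 117, 123 and 167 FPKM in the light. All 6 dark libraries lay below all 6 light libraries in both genotypes, which held for 1.08% of genes in Nono-/- and 2.21% in wild type. The level fell to 74.1 FPKM at ZT14 in Nono-/- livers, against 119 FPKM at ZT12, and to 60.1 FPKM at ZT14 in wild-type livers, against 125 FPKM at ZT12. The dark minus light log2 difference was -1.10 ± 0.14 in Nono-/- (limma, adjusted p = 0.000141) and -1.27 ± 0.14 in wild type (adjusted p = 3.13e-05). The peak-to-trough log2 difference was 1.67 ± 0.14 in Nono-/- (limma, adjusted p = 1.90e-07) and 1.83 ± 0.14 in wild type (adjusted p = 4.09e-08), or 3.19 times and 3.56 times. The fitted peaks stood at ZT7.7 ± 0.31 h in Nono-/- livers and ZT6.6 ± 0.29 h in wild-type livers. The difference in rhythm had an unadjusted p of 0.0322 and an adjusted p of 0.462 (limma). These dark minus light and rhythm calls of Gabarapl1 held in every alternative fit that was run and without any one time point. Gabarapl1 shares 93 bases of its span with 1700101I11Rik on the other strand, whose reads cannot be told apart there.

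Map1lc3b, which encodes the LC3B protein used as a marker of autophagosomes, changed less. It had 12.2, 15.3 and 18.6 FPKM in the dark and 16.1, 19.7 and 21.5 FPKM in the light in Nono-/- livers, and 12.0, 14.7 and 16.7 FPKM in the dark and 15.0, 19.8 and 24.9 FPKM in the light in wild-type livers. Dark and light libraries overlapped in both genotypes. Between dark and light the log2 difference (dark minus light) was -0.32 ± 0.11 in Nono-/- (limma, adjusted p = 0.0892, and 0.0492 with the GC slope as a covariate) and -0.43 ± 0.11 in wild type (adjusted p = 0.0149, and 0.0528 without ZT18). Its rhythm passed in both, with peak-to-trough log2 differences of 0.58 ± 0.12 (limma, adjusted p = 0.00363) in Nono-/- and 0.70 ± 0.12 (adjusted p = 0.000518) in wild type and peaks at ZT9.6 and ZT8.6.

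Map1lc3a, which encodes LC3A, had 3.84, 9.29 and 12.6 FPKM over the day in Nono-/- livers and 3.51, 8.21 and 13.5 FPKM in wild-type livers. Its lowest libraries were ZT10 in Nono-/- and ZT8 in wild type. The rhythm did not pass in Nono-/- (peak-to-trough log2 difference 0.89 ± 0.28, limma, adjusted p = 0.0539) or in wild type (0.89 ± 0.28, adjusted p = 0.0506). The fitted curves would peak at ZT1.6 and ZT19.3, and the difference in rhythm had an unadjusted p of 0.0123 (adjusted p = 0.462). The sources used here do not give how reads that also match other copies of these short genes were counted, so levels within the LC3 and GABARAP family are uncertain.

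Sqstm1 encodes the cargo receptor p62, which is itself degraded by autophagy. It had 58.6, 77.5 and 92.9 FPKM in the dark and 65.5, 107 and 135 FPKM in the light in Nono-/- livers, and 54.7, 80.2 and 103 FPKM in the dark and 67.5, 93.9 and 122 FPKM in the light in wild-type livers. Dark and light libraries overlapped, because the level was lowest at ZT14 in both genotypes and was already higher again at ZT20 and ZT22. The fitted peaks stood at ZT3.5 ± 0.74 h in Nono-/- and ZT2.4 ± 0.86 h in wild type, with peak-to-trough log2 differences of 0.78 ± 0.15 (limma, adjusted p = 0.00237) and 0.67 ± 0.15 (adjusted p = 0.00665). The dark minus light log2 difference in wild type was -0.25 ± 0.16 (limma, adjusted p = 0.301), and after correction in bins of GC it was -0.40 (adjusted p = 0.0233).

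Bnip3 encodes a mitochondrial membrane protein that binds ATG8 proteins and acts as a receptor for mitochondria. In total RNA it was highest at ZT14, where Sqstm1 was lowest. Bnip3 had 18.4, 31.4 and 58.3 FPKM in the dark and 18.3, 26.7 and 43.8 FPKM in the light in Nono-/- livers, and 13.8, 23.0 and 46.8 FPKM in the dark and 16.7, 28.3 and 43.5 FPKM in the light in wild-type livers. The highest library was ZT14 in both genotypes, so the peak straddled the light change and dark and light libraries overlapped. The peak-to-trough log2 difference was 1.58 ± 0.21 in Nono-/- (limma, adjusted p = 7.10e-05) and 1.50 ± 0.21 in wild type (adjusted p = 8.79e-05). The fitted peaks were at ZT13.6 ± 0.51 h in Nono-/- and ZT12.1 ± 0.54 h in wild type, a difference of 1.56 ± 0.74 h, and the test of the rhythm difference did not pass (adjusted p = 0.494).

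Tfeb, which encodes the transcription factor that switches on lysosome and autophagy genes, was the least abundant member. It had 0.331, 0.679 and 0.962 FPKM over the day in Nono-/- livers and 0.272, 0.659 and 1.36 FPKM in wild-type livers. Its rhythm did not pass, with peak-to-trough log2 differences of 0.19 ± 0.39 in Nono-/- (limma, adjusted p = 0.914) and 0.85 ± 0.39 in wild type (adjusted p = 0.204). At this level the pseudocount of 0.1 FPKM shrinks log2 differences.

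**Figure D2:**
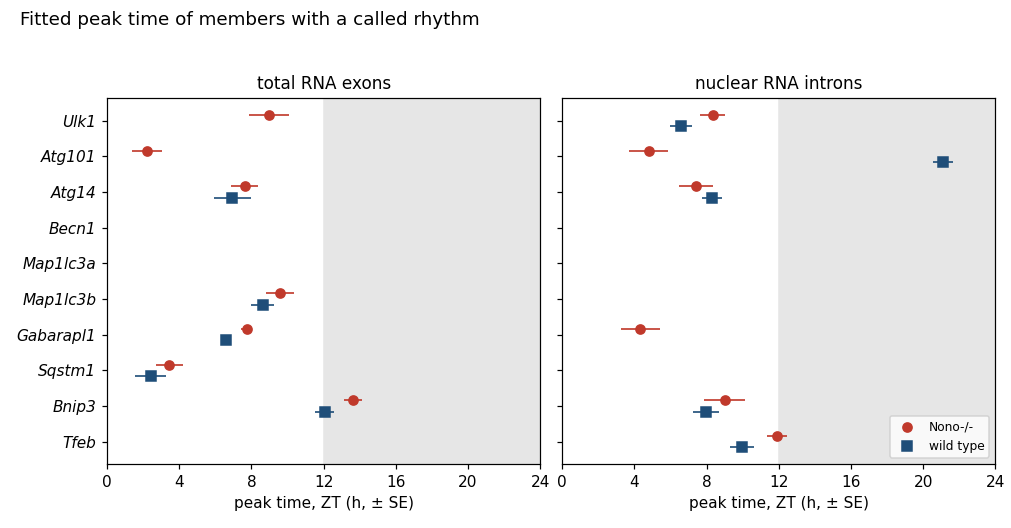
Fitted time of the daily peak (x axis, ZT in h, ± SE) for the members whose rhythm passed (limma, adjusted p under 0.05), in exons of total RNA (left) and introns of nuclear RNA (right), Nono-/- in red circles above wild type in blue squares, with the dark hours in grey. In total RNA the peaks spread between ZT2.2 and ZT13.6, and Atg101 introns peak at ZT4.8 in Nono-/- and at ZT21.1 in wild type.

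Set in order of their fitted peaks in total RNA, the members did not share one phase. Sqstm1 came first in wild-type livers, at ZT2.4, with Gabarapl1, Atg14 and Map1lc3b between ZT6.6 and ZT8.6 and Bnip3 at ZT12.1. In Nono-/- livers Atg101 and Sqstm1 came at ZT2.2 and ZT3.5, Atg14, Gabarapl1, Ulk1 and Map1lc3b between ZT7.6 and ZT9.6, and Bnip3 at ZT13.6. The wild-type peaks of Gabarapl1 and Atg14 differed by less than the standard error of Atg14, while those of Sqstm1 and Bnip3 stood farther from the rest than their standard errors. For the rhythm difference and for the dark minus light difference between the genotypes, 0 of 10 members and 0 of 11352 genes passed (limma), with 1207 and 976 genes at an unadjusted p under 0.05.

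Promoters are shown for Gabarapl1 and Atg14, the members lower in the dark in both genotypes in total RNA, and for Bnip3, the member with the latest peak. They are RefSeq sequences of build GRCm38.p6 (the assembly of mm10), 250 bases before to 50 bases after the start of the gene, read along its strand, and capitals mark an E-box. Gabarapl1 lies at chr6:129532942-129533241 (+), Atg14 at chr14:47568385-47568684 (-) and Bnip3 at chr7:138909457-138909756 (-).
Gabarapl1: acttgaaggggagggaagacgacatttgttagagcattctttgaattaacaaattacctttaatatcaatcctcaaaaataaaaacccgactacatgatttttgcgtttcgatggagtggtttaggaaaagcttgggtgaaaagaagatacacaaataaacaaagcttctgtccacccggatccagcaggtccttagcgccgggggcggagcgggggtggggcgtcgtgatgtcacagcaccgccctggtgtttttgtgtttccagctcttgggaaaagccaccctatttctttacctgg
Atg14: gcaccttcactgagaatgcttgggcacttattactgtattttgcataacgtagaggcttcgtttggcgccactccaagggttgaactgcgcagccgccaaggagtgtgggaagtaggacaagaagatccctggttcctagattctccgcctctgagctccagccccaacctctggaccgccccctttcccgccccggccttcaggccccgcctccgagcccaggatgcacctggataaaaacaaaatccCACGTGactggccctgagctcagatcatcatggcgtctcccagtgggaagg
Bnip3: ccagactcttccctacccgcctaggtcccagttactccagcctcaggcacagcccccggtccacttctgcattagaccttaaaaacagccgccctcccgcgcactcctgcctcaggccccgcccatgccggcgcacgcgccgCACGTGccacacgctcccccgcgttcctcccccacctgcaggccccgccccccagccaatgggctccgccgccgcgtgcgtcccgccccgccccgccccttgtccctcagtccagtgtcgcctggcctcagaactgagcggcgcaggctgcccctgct
The E-box CACGTG, the sequence bound by CLOCK and BMAL1 and, within a longer element, by TFEB, was found in 2 of the 8 members with a promoter in the RefSeq table, and in 7.15% of all 32851 promoters. It starts 108 bases before the start of Bnip3 and 1 base before that of Atg14. The palindromic CLEAR element, which contains the E-box (0.326% of promoters), the forkhead site GTAAACA (3.65%) and the D-box TTATGTAA (0.938%) were searched on both strands and were in none of these windows. The matches are descriptions of the letters only.

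In nuclear RNA, introns report on unspliced transcripts, and there Ulk1, Bnip3, Atg14 and Gabarapl1 were all lower in the dark than in the light. Of the 9 members tested, dark was lower for 4 in Nono-/- livers (8.15% of 12055 genes) and for 5 in wild-type livers (8.41%), and Atg101 was higher in the dark in wild type (8.66% of genes were higher). Rhythms passed for 6 of 9 members in Nono-/- livers (31.7% of all genes) and for 5 of 9 in wild-type livers (20.7%). Without ZT2, ZT4 or ZT6 only 3 members passed in Nono-/- livers, and with the GC slope as a covariate 3 did. Map1lc3a has 719 bases of intron, had 0 to 5 intron reads a library and was not tested.

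**Figure D3:**
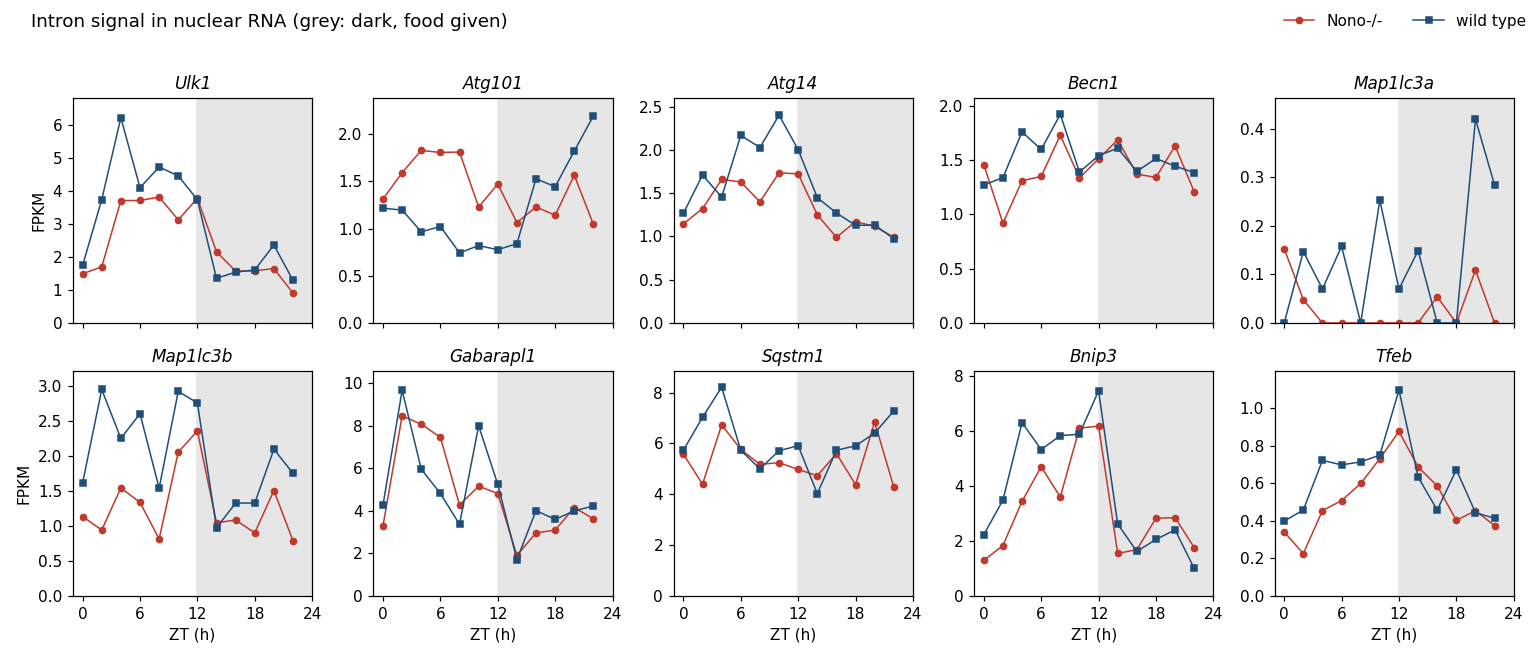
Intron FPKM of the 10 genes in nuclear RNA (y axis, from 0) against zeitgeber time in h (x axis), 1 point per pool, Nono-/- in red circles and wild type in blue squares, with the dark hours in grey. The ZT0 points, counted as dark in the tests, lie left of the grey. Ulk1 and Bnip3 fall between ZT12 and ZT14 in both genotypes, and Atg101 is high in the light in Nono-/- and late in the dark in wild type.

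Ulk1 introns had 0.906, 1.58 and 2.16 FPKM in the dark and 1.70, 3.71 and 3.82 FPKM in the light in Nono-/- livers, and 1.29, 1.57 and 2.37 FPKM in the dark and 3.74, 4.28 and 6.22 FPKM in the light in wild-type livers. In wild type all dark libraries lay below all light libraries (3.53% of genes), and in Nono-/- the ZT2 library stood among the dark ones. The dark minus light log2 difference was -1.08 ± 0.18 in Nono-/- (limma, adjusted p = 0.000569) and -1.46 ± 0.18 in wild type (adjusted p = 3.56e-05). The rhythm passed in both, with peaks at ZT8.3 ± 0.69 h and ZT6.6 ± 0.59 h and peak-to-trough log2 differences of 1.64 ± 0.29 (limma, adjusted p = 0.00190) and 1.90 ± 0.29 (adjusted p = 0.000520). The wild-type rhythm of Ulk1 thus passed in nuclear introns and not in total RNA exons, and the difference between the 2 measures was not tested.

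Bnip3 introns had 1.29, 1.72 and 2.84 FPKM in the dark and 1.83, 4.14 and 6.16 FPKM in the light in Nono-/- livers, and 0.995, 2.14 and 2.61 FPKM in the dark and 3.48, 5.84 and 7.45 FPKM in the light in wild-type livers. Dark lay wholly below light in wild type (3.53% of genes), and in Nono-/- the light library at ZT2 fell among the dark ones. Between dark and light the log2 difference (dark minus light) was -1.08 ± 0.26 in Nono-/- (limma, adjusted p = 0.00788) and -1.57 ± 0.26 in wild type (adjusted p = 0.000497). Introns peaked at ZT9.0 in Nono-/- and ZT8.0 in wild type, so the exon peak in total RNA came 4.62 ± 1.26 h and 4.11 ± 0.91 h later. The Nono-/- intron rhythm lost its call without any one of 9 time points (adjusted p = 0.0419 with all, up to 0.136 without one), with no filter (0.0653), with the GC slope as a covariate (0.0621) and with an added 12 h period (0.109).

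Gabarapl1 introns had 1.90, 3.20 and 4.15 FPKM in the dark and 4.28, 6.31 and 8.47 FPKM in the light in Nono-/- livers, with no overlap (3.02% of genes), and 1.71, 4.01 and 4.28 FPKM in the dark and 3.36, 5.60 and 9.67 FPKM in the light in wild-type livers, with overlap. The dark minus light log2 difference was -1.01 ± 0.27 in Nono-/- (limma, adjusted p = 0.0123) and -0.77 ± 0.27 in wild type (adjusted p = 0.0479). The wild-type call was lost without any one time point other than ZT8 (highest adjusted p = 0.114). The rhythm passed in Nono-/- (1.43 ± 0.41, peak ZT4.3, limma, adjusted p = 0.0310, and 0.0921 with the GC slope as a covariate), where the exon peak came 3.41 ± 1.12 h later.

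Atg14 introns had 0.989, 1.13 and 1.25 FPKM in the dark and 1.32, 1.64 and 1.74 FPKM in the light in Nono-/- livers, and 0.974, 1.20 and 1.45 FPKM in the dark and 1.45, 2.01 and 2.401 FPKM in the light in wild-type livers. In Nono-/- all dark libraries lay below all light libraries (3.02% of genes). In wild type the same held in FPKM, by a margin of less than 0.01 between ZT14 and ZT4, and not in the scaled values. The log2 difference was -0.51 ± 0.12 in Nono-/- (limma, adjusted p = 0.00460) and -0.71 ± 0.12 in wild type (adjusted p = 0.000376). The intron peaks at ZT7.4 in Nono-/- and ZT8.3 in wild type differed from the exon peaks by 0.22 ± 1.19 h and -1.36 ± 1.17 h (exon minus intron). In Nono-/- livers this difference was 0.65 ± 1.28 h for Ulk1. For Atg101 it was -2.58 ± 1.36 h, with the exon peak before the intron peak.

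Atg101 introns had the smallest p of the members for a difference in rhythm between the genotypes, although the test did not pass after adjustment. They had 1.04, 1.19 and 1.57 FPKM in the dark and 1.23, 1.70 and 1.83 FPKM in the light in Nono-/- livers, and 0.841, 1.49 and 2.195 FPKM in the dark and 0.743, 0.893 and 1.20 FPKM in the light in wild-type livers. Nono-/- was higher than wild type in the light by 0.80 on the log2 scale and lower in the dark (-0.23). The intron rhythm peaked at ZT4.8 ± 1.09 h in Nono-/- (peak-to-trough log2 difference 0.61 ± 0.17, limma, adjusted p = 0.0327) and at ZT21.1 ± 0.58 h in wild type (1.15 ± 0.17, adjusted p = 0.000406). The test of the rhythm difference had an unadjusted p of 1.91e-05 and an adjusted p of 0.115, and over the alternative fits the adjusted p ran between 0.0897 and 0.684. It did not pass over 12055 genes, of which 0 passed and 800 were at an unadjusted p under 0.05 (limma). The dark minus light difference between the genotypes was -1.02 ± 0.24 (adjusted p = 0.354), and here 0 of 12055 genes passed and 562 were at an unadjusted p under 0.05. These introns rest on 73 to 249 reads a library. The Nono-/- rhythm lost its call without ZT2, ZT4, ZT6, ZT8 or ZT14 and with the GC slope as a covariate (adjusted p = 0.0652), while the wild-type rhythm kept it in every alternative fit, and the wild-type dark minus light difference (0.60 ± 0.17, adjusted p = 0.0157) lost it without ZT22 (0.0538).

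Tfeb introns were called rhythmic in both genotypes and its exons in total RNA were not, and the difference between these measures was not tested. They had 0.225, 0.480 and 0.875 FPKM over the day in Nono-/- livers and 0.398, 0.651 and 1.09 FPKM in wild-type livers, with the highest library at ZT12 in both. The peak-to-trough log2 difference was 1.12 ± 0.17 in Nono-/- (peak ZT11.9, limma, adjusted p = 0.000400) and 0.94 ± 0.17 in wild type (peak ZT10.0, adjusted p = 0.00167). Tfeb introns in wild type had a dark minus light difference of -0.53 ± 0.21 (limma, adjusted p = 0.0860), or of -0.56 with the GC slope as a covariate (0.0104). Map1lc3b introns passed only for dark minus light in wild type, at -0.75 ± 0.22 (limma, adjusted p = 0.0223, and up to 0.0572 without ZT14 or ZT16), against -0.43 ± 0.22 in Nono-/- (adjusted p = 0.187), and the difference between genotypes did not pass (adjusted p = 0.982). Sqstm1 introns, at 4.28 to 6.84 FPKM in Nono-/- and 4.02 to 8.21 FPKM in wild type, and Becn1 introns, at 0.919 to 1.73 FPKM and 1.27 to 1.92 FPKM, passed no daily test. The rhythm of Sqstm1 passed in total RNA exons in both genotypes and not in nuclear introns. There its peak-to-trough log2 difference was 0.20 ± 0.16 in Nono-/- (limma, adjusted p = 0.571) and 0.48 ± 0.16 in wild type (adjusted p = 0.0914, and 0.0248 with the GC slope as a covariate). In wild type the exons had 0.67 ± 0.15, and the fitted peaks were at ZT1.3 in introns and ZT2.4 in exons. The difference between the 2 measures was not tested.

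**Figure D4:**
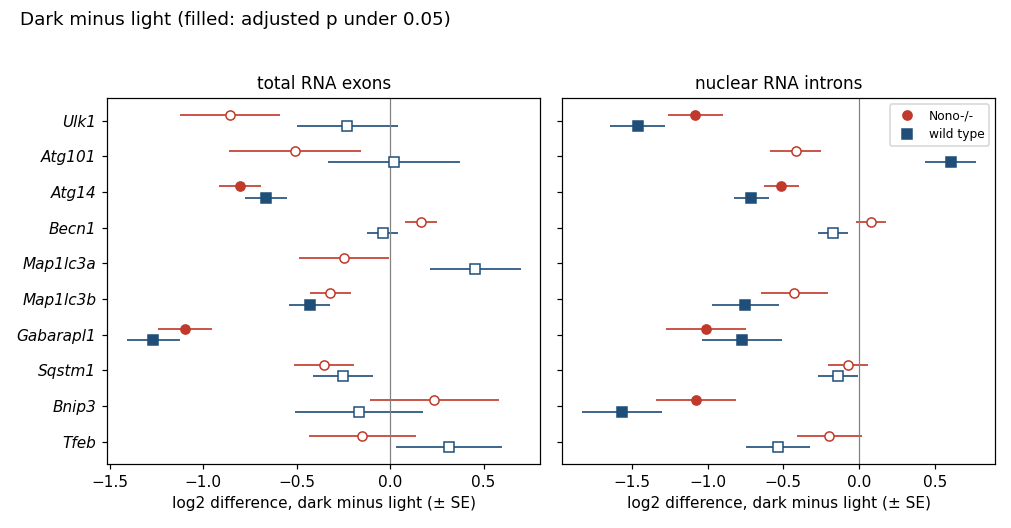
Dark minus light log2 difference (x axis, ± SE) of each member (y axis) in exons of total RNA (left) and introns of nuclear RNA (right), Nono-/- in red circles above wild type in blue squares, filled where the adjusted p (limma) was under 0.05. Gabarapl1 and Atg14 are filled and below 0 in both panels and both genotypes. Ulk1, Map1lc3b and Sqstm1 also lie below 0 in both panels and both genotypes, but are not filled throughout. Atg101 introns lie above 0 in wild type.

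Over the whole day, the level of 1 of 10 members differed between genotypes in total RNA, and that was Ulk1 (10.9% of all genes passed, 6.48% as lower in Nono-/-). Ulk1 had 1.04, 2.67 and 4.49 FPKM in Nono-/- livers and 2.35, 3.59 and 5.80 FPKM in wild-type livers, and was lower in Nono-/- at 10 of 12 time points. The log2 difference was -0.62 ± 0.19 (limma, adjusted p = 0.0381), or -0.94 over the 6 dark times and -0.31 over the 6 light times. Leaving out any one of ZT0, ZT2, ZT6, ZT8, ZT10, ZT12, ZT14 and ZT22 ended the call (adjusted p up to 0.0937), as did FPKM without scaling (0.0646), no filter (0.0661) and the intron share of the library as a covariate (0.313). After correction in bins of GC the difference was -0.52 (adjusted p = 0.0134). The intron share of total RNA was 18.5% ± 2.41 in Nono-/- and 22.1% ± 1.72 in wild type (SD, n = 12 each). The other 9 members had genotype differences between -0.19 (Tfeb) and 0.17 (Bnip3), none of which passed.

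In nuclear introns 3 of 9 members passed for genotype (18.1% of all genes, 7.91% as higher and 10.2% as lower in Nono-/-), Map1lc3b at -0.61 ± 0.18 (limma, adjusted p = 0.0239), Atg101 at 0.29 ± 0.09 (adjusted p = 0.0284) and Tfeb at -0.24 ± 0.08 (adjusted p = 0.0466). Map1lc3b introns had 0.788, 1.11 and 2.36 FPKM in Nono-/- and 0.976, 1.93 and 2.96 FPKM in wild type, and were lower in Nono-/- at 11 of 12 time points. For Atg101 the intron difference was 0.80 over the light times and -0.23 over the dark times. Atg101 exons in nuclear RNA went the other way, at -0.61 ± 0.25 (limma, adjusted p = 0.0570), lower in Nono-/- at 10 of 12 time points. With the GC slope as a covariate none of the 3 intron calls held, at -0.34 (limma, adjusted p = 0.506) for Map1lc3b, 0.28 (0.247) for Atg101 and -0.07 (0.777) for Tfeb. That slope was taken from exons and moved with genotype in nuclear RNA, so this fit cannot separate slope from genotype. The calls over all genes fell from 2177 to 45 in it. With time point as a block the adjusted p was 0.207 for Atg101 and 0.0571 for Tfeb. Leaving out single time points also ended these calls, 4 times for Map1lc3b (up to 0.0620), 6 times for Atg101 (up to 0.0844) and 10 times for Tfeb (up to 0.149).

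Exons in nuclear RNA were lower in Nono-/- for 3 of 8 members tested (34.3% of all genes passed, 18.6% as lower), Ulk1 at -0.62 ± 0.17 (limma, adjusted p = 0.0120), Atg14 at -0.30 ± 0.09 (0.0153) and Sqstm1 at -0.29 ± 0.10 (0.0265). After correction in bins of GC these were -0.14 (limma, adjusted p = 0.609), -0.25 (0.0596) and -0.04 (0.776), and Becn1 passed at -0.32 (0.0103), against -0.15 (0.0772) without it. With the GC slope as a covariate 0 of 8 members passed, but the slope moved with genotype in nuclear RNA and cannot be separated from it. With the intron share as a covariate the adjusted p values of Ulk1, Atg14 and Sqstm1 were 0.0951, 0.0975 and 0.219 (limma), and Sqstm1 also lost its call without any one of ZT2, ZT10, ZT12, ZT18 and ZT22 (up to 0.0718). Without scaling, the median gene lay at -0.20, and these differences are relative to the median gene. The summed level of 9 pancreatic acinar markers had a median of 1.49 FPKM (0.373 to 19.0) in Nono-/- nuclear RNA, with 0 of 9 at a mean of 1 FPKM or more, and of 8.39 FPKM (0.135 to 48.4) in wild-type nuclear RNA, with 6 of 9, and Prss1 and Amy2a5 were at 0 in every library of both groups. Its part in these genotype differences was not tested. Daily rhythms of nuclear exons passed for 4 of 8 members in Nono-/- (30.8% of all genes) and for 4 of 8 in wild type (10.5%), with Ulk1, Bnip3 and Atg14 in both, Gabarapl1 in Nono-/- and Becn1 in wild type. After correction in bins of GC 7 of 8 members passed in wild type, and 1908 of 10500 genes.

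**Figure D5:**
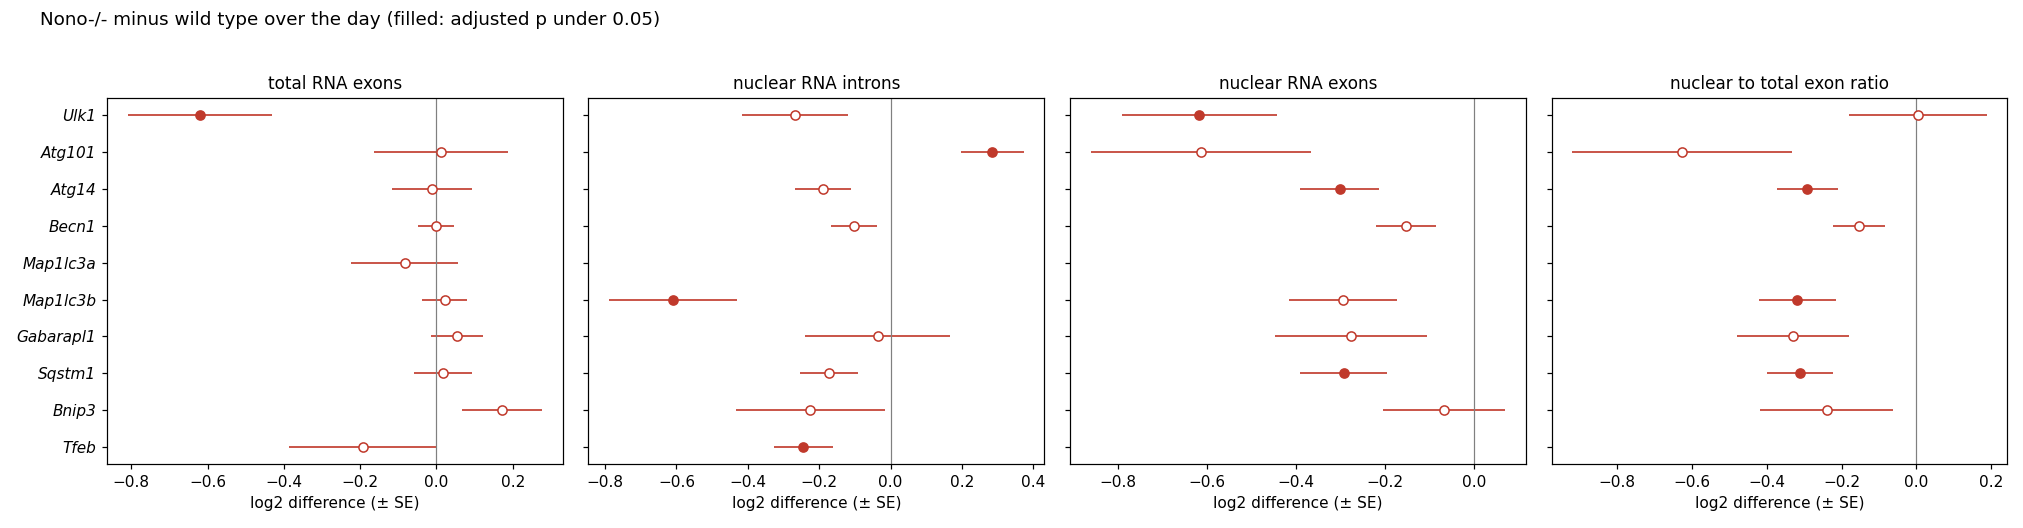
Nono-/- minus wild-type log2 difference over the day (x axis, ± SE) of each member (y axis) in exons of total RNA, introns of nuclear RNA, exons of nuclear RNA and the nuclear to total exon ratio, from left to right, filled where the adjusted p (limma) was under 0.05. Ulk1 is filled in both exon panels and lies at 0 in the ratio, and the panels have separate scales.

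Nuclear to total exon ratios set the exon level in nuclear RNA against that in total RNA. Exon reads in nuclei include those of unspliced transcripts: Ulk1 averaged 2.22 FPKM over exons and 2.43 FPKM over introns in Nono-/- nuclei, and Bnip3 2.37 and 3.14 FPKM, so the ratio does not measure spliced RNA alone. The median gene had a log2 nuclear minus total difference of -1.34 in Nono-/- and -1.33 in wild type. Ulk1 stood well above it, at -0.16 ± 0.42 in Nono-/- and -0.17 ± 0.77 in wild type (SD, n = 12 each), the 80.4th and 82.7th percentile of the genes tested. Atg14 came next at -1.07 ± 0.21 in Nono-/- and -0.78 ± 0.21 in wild type, and Becn1 at -2.20 ± 0.12 and -2.05 ± 0.18. Sqstm1, Map1lc3b, Bnip3, Atg101 and Gabarapl1 lay between -3.24 and -3.90 in Nono-/- and between -2.92 and -3.57 in wild type. Gabarapl1 was the lowest of the 8 tested, at the 5.45th percentile in Nono-/- and the 5.64th in wild type. The ratio was lower in Nono-/- for 3 of 8 members (19.6% of genes passed, 9.19% as lower), Map1lc3b at -0.32 ± 0.10 (limma, adjusted p = 0.0359), Sqstm1 at -0.31 ± 0.09 (0.0234) and Atg14 at -0.29 ± 0.08 (0.0213). With the difference of GC slopes as a covariate the adjusted p values were 0.0790, 0.168 and 0.0586 (limma). The nuclear slope moved with genotype, so this fit cannot separate slope from genotype. The Becn1 ratio passed after correction in bins of GC, at -0.28 (limma, adjusted p = 0.0172), against -0.15 (0.108) without it. Each of these calls was also lost in some fits that left out 1 time point, without ZT8 or ZT22 for Atg14, without 5 time points for Sqstm1 and without 8 for Map1lc3b (up to 0.0896).

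The wider pathway was taken from 10 lists with 129 genes, the members included, of which 127 were tested in total RNA. The lists too were chosen with earlier results of these data known. Rhythms passed for 56 of 127 genes in Nono-/- livers and 52 of 127 in wild-type livers, against 29.6% and 31.6% of all genes, and without the members for 49 and 47 of 117. Dark was lower for 11 listed genes in Nono-/- and 18 in wild type (2.26% and 5.71% of all genes) and higher for 2 and 4 (3.03% and 6.36%). The median peak-to-trough log2 difference of the listed genes was 0.47 in Nono-/- and 0.47 in wild type, against 0.45 and 0.47 over all genes. Cargo receptors were called rhythmic in 9 of 15 (Nono-/-) and 11 of 15 (wild type), transcriptional regulators in 9 and 11 of 16, and lysosomal genes in 5 and 5 of 20. The lists also hold genes of the circadian clock and its output, such as Nr1d1, Nfil3 and Hlf, which were not set apart. Of the 11 genes for attaching ATG8 proteins to membrane, 4 were called rhythmic in Nono-/- and 1 in wild type, and dark minus light was called for 0 in both. The correction for GC was not run on the lists.

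Several listed genes followed the light-phase pattern of Gabarapl1 and Atg14. Pik3c3, the catalytic subunit of the lipid kinase complex, had 4.43 to 5.49 FPKM in the dark and 5.68 to 7.22 FPKM in the light in Nono-/- livers, and 3.55 to 5.68 FPKM in the dark and 6.59 to 8.35 FPKM in the light in wild-type livers. Its dark minus light log2 difference was -0.42 ± 0.10 in Nono-/- (limma, adjusted p = 0.0190) and -0.65 ± 0.10 in wild type (adjusted p = 0.000445). Fam134b, a receptor for the endoplasmic reticulum, was lower in the dark, with dark minus light log2 differences of -0.84 ± 0.20 in Nono-/- (limma, adjusted p = 0.0174) and -0.85 ± 0.20 in wild type (0.00911). Fnip1, a partner of folliculin in nutrient sensing, was lower as well, at -0.71 ± 0.20 in Nono-/- (limma, adjusted p = 0.0433) and -1.05 ± 0.20 in wild type (0.00257). Ddit4, an inhibitor of mTORC1, went the other way, at 1.94 to 3.49 FPKM in the dark and 0.504 to 1.68 FPKM in the light in Nono-/- livers, and 1.63 to 3.54 FPKM in the dark and 0.561 to 1.81 FPKM in the light in wild-type livers. Its dark minus light log2 difference was 1.23 ± 0.25 in Nono-/- (limma, adjusted p = 0.00648) and 1.16 ± 0.25 in wild type (0.00506). Among the other core genes, Ulk2 (0.47 ± 0.11, limma, adjusted p = 0.00841) and Stx17 (0.53 ± 0.12, 0.00740) were called rhythmic in Nono-/- and not in wild type, where they had 0.16 ± 0.11 (0.483) and 0.28 ± 0.12 (0.176). The difference in rhythm passed for neither (limma, adjusted p = 0.462 for Ulk2 and 0.511 for Stx17). Nbr1, a receptor related to p62, was called in both, at 0.41 ± 0.11 (0.0212) in Nono-/- and 0.67 ± 0.11 (0.000346) in wild type. Atg7, Atg13, Gabarap and Lamp1 were called in neither, with peak-to-trough log2 differences of 0.05 to 0.31 in Nono-/- and 0.10 to 0.35 in wild type.

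For genotype, 18 of 127 listed genes passed in total RNA, 5 higher and 13 lower in Nono-/-. Of all 11352 genes 10.9% passed, 505 higher and 736 lower. The 2 other GABARAP genes were higher. Gabarap had 105, 123 and 145 FPKM in Nono-/- livers and 93.8, 103 and 119 FPKM in wild-type livers (log2 difference 0.23 ± 0.06, limma, adjusted p = 0.0254), and Gabarapl2 had 6.04, 7.46 and 13.0 FPKM and 4.67, 6.32 and 8.22 FPKM (0.32 ± 0.10, adjusted p = 0.0415). The groups overlapped for both. The proton pump subunit Atp6v1h was higher as well (0.52 ± 0.08, limma, adjusted p = 0.00122). Lower were the regulators Foxo1 (-0.46 ± 0.10, limma, adjusted p = 0.00872), Tfe3 (-0.37 ± 0.10, 0.0267), Hlf (-0.43 ± 0.10, 0.0121) and Ppara (-0.28 ± 0.08, 0.0204), the lipid transfer gene Atg2b (-0.32 ± 0.06, 0.00217) and the AMPK subunit Prkaa2 (-0.26 ± 0.07, 0.0233). Of 24 mTORC1 and AMPK genes tested, 5 were lower and none was higher, against 736 lower and 505 higher of all 11352 genes. With the intron share as a covariate the 1241 calls over all genes became 23, and the listed genes were not counted in that fit.

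For the 5 members called rhythmic in both genotypes, the 2 genes with the most similar daily course among 9915 genes that averaged 1 FPKM or more were listed, by the mean of 2 Pearson r values over 12 Nono-/- and 12 wild-type total RNA libraries. For Gabarapl1 these were Casp6 (mean r = 0.96) and Klhl24 (0.95). Klhl24 was also the nearest gene to Atg14 (0.91), followed by Fbxl20 (0.90). The nearest to Sqstm1 were Plin2 (0.95), which encodes a lipid droplet protein, and Tymp (0.94). Mfn1, a mitochondrial fusion gene, and Smarca2 were nearest to Bnip3 (both 0.95), and Rgs16 (0.90) and Gle1 (0.89) to Map1lc3b. The libraries share depth and GC slope, and these are descriptions of likeness.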

How the data were processed

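Total RNA and nuclear RNA were measured by strand-specific, rRNA-depleted sequencing, per the labels' protocols. Reads were handled with STAR 2.4.0k and FastQC 0.11.2 on build mm10, per the submitters' processing notes. The deposited values are FPKM per gene, over exons and over introns, made with HOMER per the file headers, which name no strand option. The depth of a library limits the precision of low genes such as Tfeb.

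FPKM were divided by a median-ratio factor for each library and taken as log2 (FPKM + 0.1) for exons and log2 (FPKM + 0.05) for introns, after a filter at a mean of 0.5 and 0.1 FPKM. Log2 differences of low genes are understated on this scale. All genes were tested with limma 3.58.1 (trend, R 4.3.3) with genotype and a 24 h cosine and sine for each genotype, or with dark and light for each genotype, and p-values were adjusted over all genes by the method of Benjamini and Hochberg. An adjusted p under 0.05 was called. The fits were tried on simulated data with independent noise for each gene and library. The simulation held no shared GC slope and no likeness between pools of the same time point, so it cannot give error rates under these. The nuclear to total ratio was the difference of log2 exon values of the same livers.

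Nono-/- and wild-type pools of the same time point deviated together from their group means, with r between 0.143 and 0.563 in total exons, 0.259 and 0.654 in nuclear introns and 0.0557 and 0.556 in nuclear exons. These deviations include the daily curves. Around the fitted curves r was between -0.205 and 0.378 in total exons, -0.0789 and 0.454 in nuclear introns and -0.157 and 0.427 in nuclear exons. Time point was therefore also used as a block. Other alternatives were no scaling, a smaller pseudocount, other filters, the intron share as a covariate, an added 12 h period, ZT0 and ZT12 left out, and each time point left out. The GC alternatives were chosen after seeing the data. The members and gene lists were chosen with earlier results of these data known. All 10 members were named, with the 2 genes most like each member called rhythmic in both genotypes. Pathway genes were taken from a fixed set and from the 2 genes of each list with the smallest p for the wild-type rhythm and for genotype. Only a part of these pathway genes is given in the text. Most of those given passed a test, so they do not stand for the set. Figures were drawn with matplotlib 3.10.9.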

Additional observations from a re-analysis of the deposited data

Results flagged for a closer look

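Within groups of 6 dark or 6 light libraries, 4 of 76 groups held a library that stood apart from the other 5, and chance alone marks about 1 in 20 groups. Ulk1 introns in Nono-/- nuclear RNA were lowest in the light at ZT2, at 1.701 FPKM against 3.127 FPKM for the nearest library, and that library had the lowest GC slope of its group, -0.98. Map1lc3a exons in Nono-/- total RNA were lowest in the light at ZT10, at 3.839 FPKM against 9.587 FPKM, in a library with a GC slope of -0.37. Gabarapl1 exons in wild-type total RNA were highest at ZT6, at 167.436 FPKM against 134.168 FPKM. Gabarapl1 introns in wild-type nuclear RNA were lowest in the dark at ZT14, at 1.706 FPKM against 3.596 FPKM. The part of the GC slope in these values was not tested.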

How the results depend on the processing

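Of 3167 values of single genes under the alternatives, 2921 kept their side of the threshold, 177 lost a call and 69 gained one. No called value turned direction, while some estimates that missed the threshold changed sign, such as the total exon genotype differences of Map1lc3a, Atg101, Sqstm1 and Becn1 without single time points. The GC alternatives were chosen after seeing the data. Where counts of members moved, the cause was not tested. For genotype in total exons, the 1 member called became 0 with no scaling, no filter or the intron share as covariate (0 to 1 without single time points). For dark minus light in Nono-/- total exons, 2 became 4 with the GC slope, with or without the replicate block (2 to 4, with 4 without ZT2). For genotype in nuclear introns, 3 became 1 with the intron share, 1 with time point as replicate block, and 0 with the GC slope, with or without the block (0 to 3). For the Nono-/- nuclear intron rhythm, 6 became 3 with the GC slope and 2 with an added 12 h period (3 to 6). For genotype in nuclear exons, 3 became 6 with no scaling, 0 with the intron share, 5 with the block, 0 with the GC slope with or without the block, and 1 with the GC correction (2 to 5). The 4 members with a nuclear exon rhythm in Nono-/- became 2 with no scaling and 1 with the 12 h period (1 to 4), and the 4 in wild type 2 with no scaling and 7 with the GC correction (3 to 5). For the ratio, 3 became 5 with no scaling, 0 with the intron share, 0 with the GC slope and 1 with the GC slope and block (0 to 4).

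Without single time points the members called ranged over 6 to 8 (Nono-/-) and 4 to 7 (wild type) for the total exon rhythm, 2 to 3 for wild-type dark minus light in total exons, 5 to 5 for the wild-type intron rhythm, and 4 to 5 (Nono-/-) and 4 to 6 (wild type) for dark minus light in introns. Rhythm differences stayed at 0 members in all 3 tables.

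Counts over all genes moved as follows. Genotype in total exons, 1241, became 23 with the intron share, 2172 with the GC slope, 1971 with the GC correction, 2213 with the correction and block and 2393 with the slope and block (715 to 1272 without single time points). Genotype in nuclear introns, 2177, became 1004, 45 with the slope and 33 with slope and block (1133 to 2918). Genotype in nuclear exons, 3604, became 1853 with the stricter filter (fewer genes tested), 1062 with the intron share, 25 with the slope, 1277 with the correction, 1759 with correction and block and 19 with slope and block (2114 to 4544). The ratio, 1934, became 1216 with the stricter filter, 131 with the intron share, 1120 with the block, 385 with the slope and 372 with slope and block (603 to 3434). Dark minus light in Nono-/- total exons, 601, became 1418 with the slope, 1040 with the correction, 1060 with correction and block and 1439 with slope and block (200 to 974). In wild-type introns, 2058 became 3176 with the slope and 3152 with slope and block (1282 to 2740). With the 12 h period, rhythms fell to 2103 in wild-type total exons (3592 without it; 2424 to 3900), 1884 and 1205 in Nono-/- and wild-type introns (3827 and 2496; 2512 to 4522 and 1641 to 2463), and 1184 and 498 in nuclear exons (3235 and 1105; 1697 to 4349 and 688 to 1109). With the GC slope, rhythms were 2496 in Nono-/- introns, 1988 in Nono-/- nuclear exons and 2248 in wild-type nuclear exons, and 1908 there with the GC correction. Other ranges were 2468 to 4063 for the Nono-/- total exon rhythm (3356), 658 to 1762 for wild-type dark minus light in total exons (1370), 1371 to 2553 for Nono-/- dark minus light in introns (2055), and 0 to 1 for rhythm differences in nuclear exons.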
